A study of Homo sapiens with 6 samples.

Results

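The Notch genes examined here are 10 named genes of the 56303 gene symbols in the count table of the series. They are the receptors NOTCH1, NOTCH2 and NOTCH3, the ligands JAG1, JAG2 and DLL1, the transcriptional targets HES1, HES4 and HEY1, and ATOH1, a gene that HES1 represses in the intestine. The rule was the list of names itself. Of the 10 genes, 8 had enough counts to be tested, DLL1 was below the filter on low counts, and ATOH1 had 0 counts throughout.

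mRNA was sequenced from SW480 cells, a line established from a human colon adenocarcinoma, in 3 libraries carrying a non-silencing hairpin (shCtrl) and 3 carrying one that targets the splicing factor RBM39 (shRBM39). The labels give the genotype as WT for shCtrl and as RBM39 knockdown for shRBM39. Both hairpins were delivered by lentivirus and the cells were selected with puromycin as stable clonal lines, so the groups share vector and drug, and a difference between clones cannot be told apart from the knockdown. The study describes 3 independent replicate experiments in each group, and p-values measure the spread between these libraries.

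Notch signalling runs between touching cells. A JAG or DLL ligand on a cell binds a Notch receptor on its neighbour, ADAM proteases and then gamma-secretase cut the receptor, and its freed intracellular part joins the DNA-binding protein RBPJ and a MAML coactivator to switch on the HES and HEY repressor genes. In the gut, HES1 holds back ATOH1, the factor that starts the secretory lineage of goblet, Paneth and enteroendocrine cells, and Notch activity thereby favours absorptive cells.

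The total counts ran from 18042924 to 20428901 per library. RBM39, the targeted gene, had 441, 448 and 435 counts per 1000000 counts (CPM, scaled by edgeR's TMM factors) in shCtrl replicates 1, 2 and 3 and 266, 276 and 292 CPM in shRBM39, a log2 fold change of -0.67. The epithelial markers EPCAM, KRT8, KRT18, KRT19 and CDH1 were all present, their sum running from 11009 to 11834 CPM in shCtrl and from 14118 to 14675 CPM in shRBM39. These markers did not move together. The log2 fold change was 0.43 for KRT8 and 0.24 for KRT18, but -0.39 for CDH1. It was 0.02 for EPCAM and 0.07 for KRT19. Of 4 leukocyte markers, PTPRC had 0 counts and the sum was at most 0.645 CPM in any library. Of 5 fibroblast markers, 3 stayed under 10 counts in every library, and the sum ran from 10.0 to 11.1 CPM in shCtrl and from 14.0 to 14.6 CPM in shRBM39, mostly COL1A1 and LUM. Of 4 endothelial markers, KDR had 0 counts and CDH5 at most 1, while the sum ran from 3.47 to 4.58 CPM in shCtrl and from 6.45 to 7.96 CPM in shRBM39, mostly PECAM1. Both sums moved with the knockdown, and their part in the Notch results was not tested.

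The order of the Notch genes by level was examined first, on the deposited RPKM values, which divide counts by gene length and library total. In shCtrl, HES1 was highest at 13.1 ± 0.229 RPKM, followed by JAG2 at 9.76 ± 0.376 RPKM (SD, n = 3). NOTCH1, HES4 and JAG1 came next at 5.32 ± 0.263, 5.23 ± 0.247 and 4.82 ± 0.198 RPKM (SD, n = 3). The libraries of NOTCH1 and HES4 overlapped, so these neighbours in the order did not differ beyond their spread, while those of HES4 and JAG1 lay next to each other without overlap. NOTCH2 followed at 1.78 ± 0.0379 RPKM, HEY1 at 0.622 ± 0.159 RPKM, DLL1 at 0.136 ± 0.0608 RPKM and NOTCH3 at 0.0540 ± 0.00117 RPKM (SD, n = 3).

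The order was the same in shRBM39, where HES4 overlapped with both NOTCH1 and JAG1. HES1 stood above 89.4% of the gene rows with counts in shCtrl and JAG2 above 86.4%, whereas NOTCH3 stood above 24.6%. NOTCH1 was thus the receptor with the highest level and JAG2 the ligand, each on the scale per length. The other genes of the pathway with levels of note were DLL4, a ligand listed outside the 10, at 4.97 RPKM in shCtrl, and HES6, a HES family member named after its values were seen, at 119 RPKM.

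**Figure D1:**
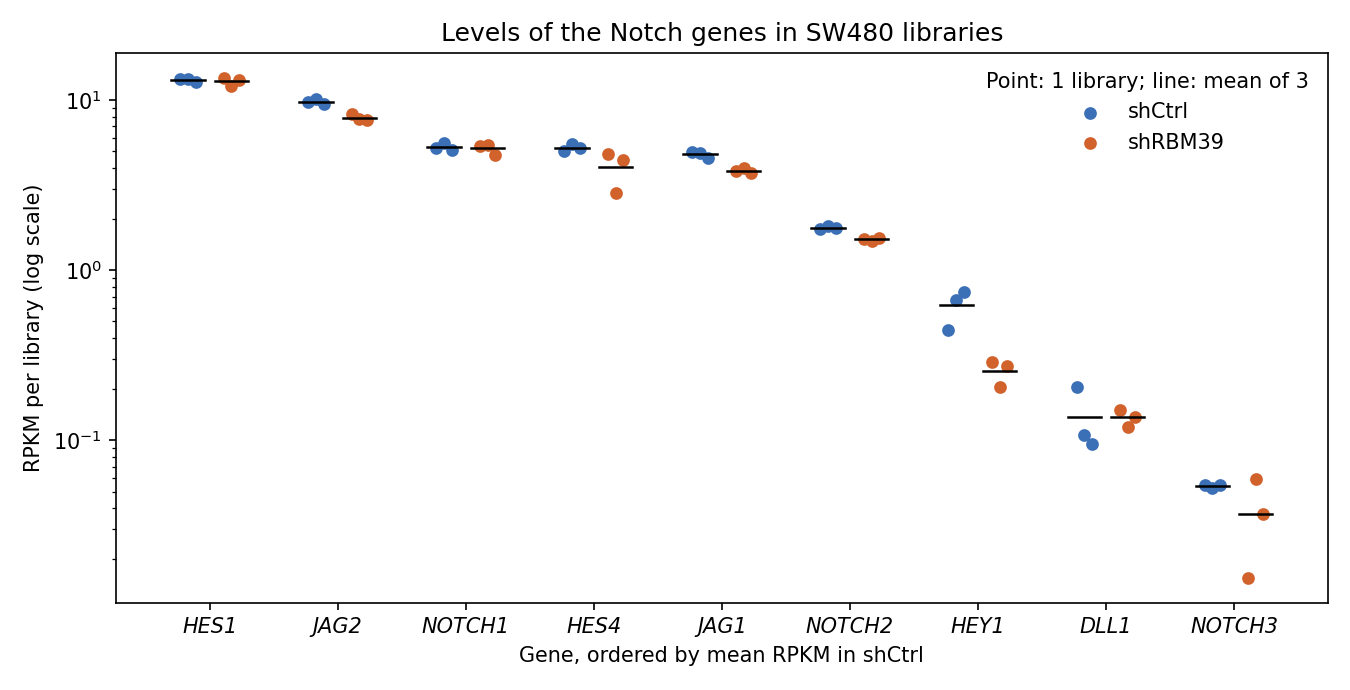
RPKM of the 9 Notch genes with counts in each library, on a log axis, ordered by their shCtrl mean. Each point is 1 library of shCtrl or shRBM39 and each line the mean of 3. HES1 lies near 13 RPKM in both groups, JAG1, JAG2, HEY1, NOTCH2 and HES4 lie lower in the 3 shRBM39 libraries than in any control on this scale, the last pair without being called, and ATOH1, with 0 counts, is not drawn.

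Next, shRBM39 was compared with shCtrl to find which Notch genes change when RBM39 is depleted. Of the 8 genes tested, JAG1, JAG2 and HEY1 were lower in shRBM39 by edgeR's quasi-likelihood test, taken at 0.05 after adjustment over all genes, and none was higher. In bulk libraries, fewer cells with a transcript and less of it per cell cannot be told apart. The other 5, which include all 3 receptors and HES1, did not pass the threshold. Among all 18243 genes tested, 59.1% were called, 29.2% as higher and 29.9% as lower, so 3 called of 8 is a smaller share than that of all genes. The CPM values of the groups did not overlap for 4 of the 8 genes, against 63.3% of all genes tested. The median log2 fold change of the 8 genes was -0.19, beside -0.01 over all genes tested.

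The receptors are single-pass membrane proteins whose large extracellular part is built of EGF-like repeats. NOTCH1 (chromosome 9, 136494444 to 136545862, minus strand, GRCh38) had 50.02, 52.9 and 48.3 CPM in shCtrl replicates 1, 2 and 3 and 55.7, 56.4 and 49.2 CPM in shRBM39. Replicates 1 and 2 of shRBM39 were above every control, and replicate 3 lay among them. The log2 fold change of NOTCH1 was 0.09, with a standard error (SE) of 0.05, an approximate 95% interval from -0.01 to 0.19, and an edgeR adjusted p of 0.126. NOTCH1 has a GC content of 63.2% in its exons, against a median of 49.3% for the tested genes. After each library was corrected for its trend with GC content and length, the gene was called as higher at 0.22, and without shRBM39 replicate 3 it was called at 0.16. Under library totals alone the sign turned, to -0.032, so no direction held for NOTCH1 under every scaling.

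NOTCH2 (chromosome 1, 119911553 to 120069626, minus strand) had 28.4, 29.2 and 28.6 CPM in shCtrl and 26.8, 26.03 and 27.2 CPM in shRBM39. The 3 shRBM39 values all lay below the controls. The log2 fold change was -0.11 (SE 0.06), at an edgeR adjusted p of 0.104, so the difference was not called. The gene passed the threshold as lower with upper-quartile scaling (-0.14), with library totals alone (-0.23) and on log2(RPKM + 1) and log2(RPKM + 0.1) (-0.14 and -0.22), whereas correcting for GC content and length turned its sign (0.040). The NOTCH2NL copies carry sequence close to that of NOTCH2, and how reads were shared between them is not stated. NOTCH2NL had 128, 110 and 118 counts in shCtrl and 92, 105 and 86 in shRBM39, next to 573 to 619 and 448 to 526 counts for NOTCH2.

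The ratio of NOTCH1 to NOTCH2 within a library does not depend on scaling. On RPKM it was 2.99, 3.08 and 2.87 in shCtrl and 3.53, 3.69 and 3.08 in shRBM39, with an exact permutation p of 0.2. The lowest shRBM39 ratio fell just below the highest control, so a shift between the receptors was not shown. The smallest p that 3 against 3 libraries allow is 0.1.

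NOTCH3 (chromosome 19, 15159038 to 15200981, minus strand) had 10 counts in each shCtrl library and 3, 10 and 7 counts in shRBM39. Its log2 fold change of -0.44 had an SE of 0.42, an interval from -1.27 to 0.39 and an edgeR adjusted p of 0.378. A difference in NOTCH3 was not detectable at this depth. The value moved to -0.059 without shRBM39 replicate 1 and to -0.90 without shRBM39 replicate 2.

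Both tested ligands among the members were called as lower, where 29.9% of all genes were. DLL4, a ligand listed outside the 10, was not called (-0.13, edgeR adjusted p 0.0812). JAG1 (chromosome 20, 10637684 to 10674107, minus strand) had 40.9, 39.9 and 37.5 CPM in shCtrl and 33.9, 35.6 and 33.1 CPM in shRBM39. Every shRBM39 library was below every control. JAG1 changed by -0.21 on the log2 scale, with an SE of 0.05 and an edgeR adjusted p of 0.00110, or -13.3%. JAG2 (chromosome 14, 105140981 to 105168824, minus strand) had 60.1, 62.0 and 57.7 CPM in shCtrl and 55.3, 51.7 and 51.3 CPM in shRBM39, again without overlap. Its log2 fold change was -0.18 (SE 0.05), at an edgeR adjusted p of 0.00107, or -11.9%.

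The size of these small decreases depended on scaling, although JAG1 and JAG2 kept their direction under every scaling tried. With GC content and length corrected for, they were -0.115 and -0.116, with adjusted p of 0.0494 and 0.0226, and under library totals alone they were -0.33 and -0.31. The ratio of JAG2 to JAG1 within a library was 1.96, 2.07 and 2.05 in shCtrl and 2.17, 1.94 and 2.07 in shRBM39 on RPKM. The groups overlapped, with an exact permutation p of 0.9. Exons of JAG2 overlap those of a non-coding gene on the same strand, RP11-44N21.4, which had 222 to 229 counts in shCtrl and 161 to 183 in shRBM39, and how reads on both were assigned is not stated. An antisense gene at JAG1, RP11-103J8.1, had 10 to 21 counts in any library.

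DLL1 (chromosome 6, 170282206 to 170306565, minus strand), a ligand of the Delta type, had 13, 7 and 6 counts in shCtrl and 10, 7 and 9 counts in shRBM39. The libraries overlapped and the gene was too low to be tested.

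**Figure D2:**
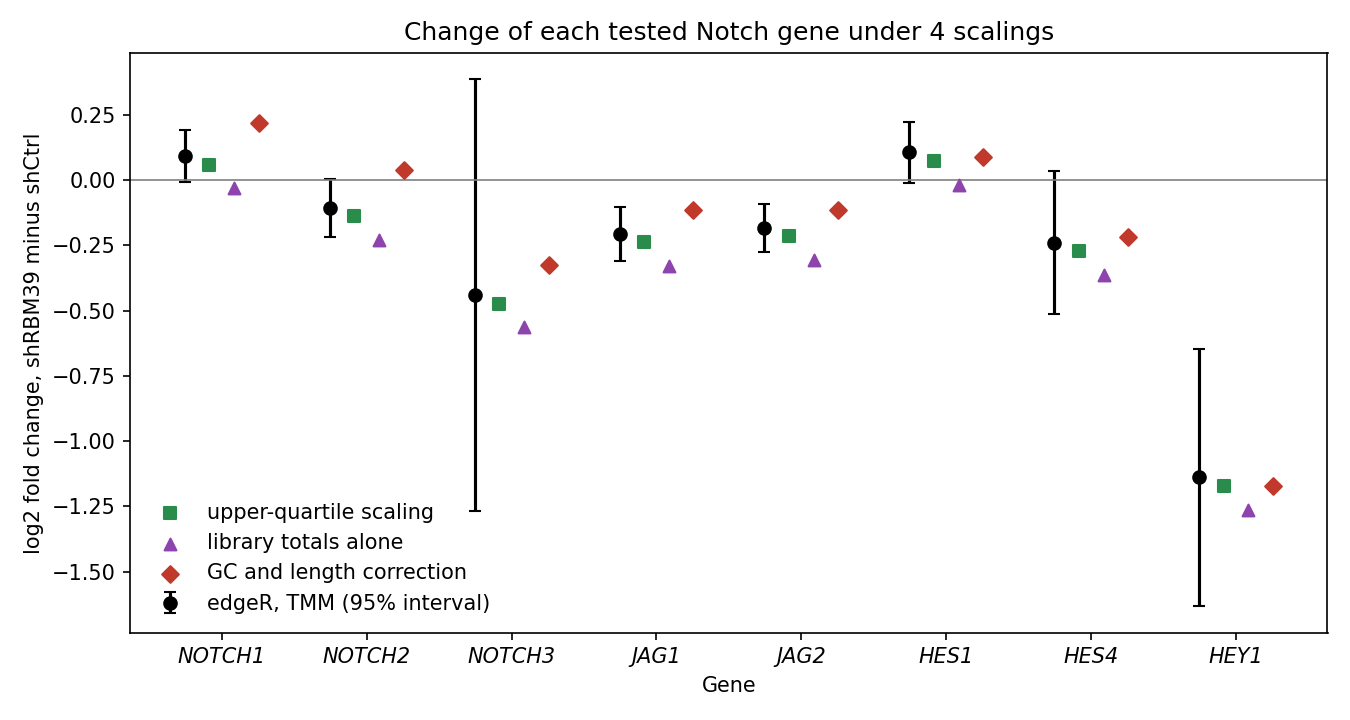
log2 fold change (shRBM39 minus shCtrl) of the 8 tested Notch genes under 4 scalings. Black points are the edgeR fit with TMM scaling and bars its approximate 95% interval, and the other markers are the same test under upper-quartile scaling, library totals alone and a correction for GC content and length of the genes. JAG1, JAG2 and HEY1 stay below 0 under the 4 scalings, and NOTCH1, NOTCH2 and HES1 cross it.

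Of the 10 Notch genes, JAG2 alone had a record in the authors' deposited table of alternative splicing. That table lists 1582 events in 1198 genes, selected for a difference, where 18243 genes were tested for level. The event is the skipping of JAG2 exon 10 of 26 (chromosome 14, 105150991 to 105151104, minus strand), a fully coding exon of 114 nucleotides whose length is divisible by 3. Exons of exactly 114 nucleotides number 7 in JAG2 and 7 in JAG1, and exons of this kind encode the EGF-like repeats of these ligands. The sequence is shown in the sense of the transcript, since it is the stretch of JAG2 whose use differs in that table. Capitals mark the exon and lower case the 30 bases of intron on each side, with the reference genome GRCh38 read at chr14:105150961-105151134.

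JAG2 exon 10: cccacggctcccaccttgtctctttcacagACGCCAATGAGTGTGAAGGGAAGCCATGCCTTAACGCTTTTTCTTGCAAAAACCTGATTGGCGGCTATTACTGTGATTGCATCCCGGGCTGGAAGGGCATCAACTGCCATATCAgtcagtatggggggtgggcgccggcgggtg

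The records call their groups group 1 and group 2 without saying which one is the knockdown, and those names are kept. JAG2 exon 10 was included at deposited levels of 0.762, 0.746 and 0.734 for group 1, and at 0.946, 0.898 and 0.842 for group 2. The levels did not overlap, group 1 being lower in each library. They rest on 30, 22 and 31 inclusion reads and 5, 4 and 6 skipping reads in group 1, and on 33, 66 and 40 inclusion reads and 1, 4 and 4 skipping reads in group 2. With so few skipping reads each level is uncertain, and no test was made, because the records were selected for a difference.

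Among the 61 other genes of the pathway described further below, 4 more exons were listed in the deposited table. NCOR1, a corepressor, had exon 32 of 46 listed at 0.864, 0.801 and 0.752 in group 1 and 0.945, 0.891 and 0.926 in group 2, from 109 to 189 reads a library and without overlap. APH1A exon 2 of 7, PSEN2 exon 2 of 13 and DTX3 exon 2 of 7 had levels that overlapped between the groups and as few as 41, 15 and 9 reads.

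**Figure D3:**
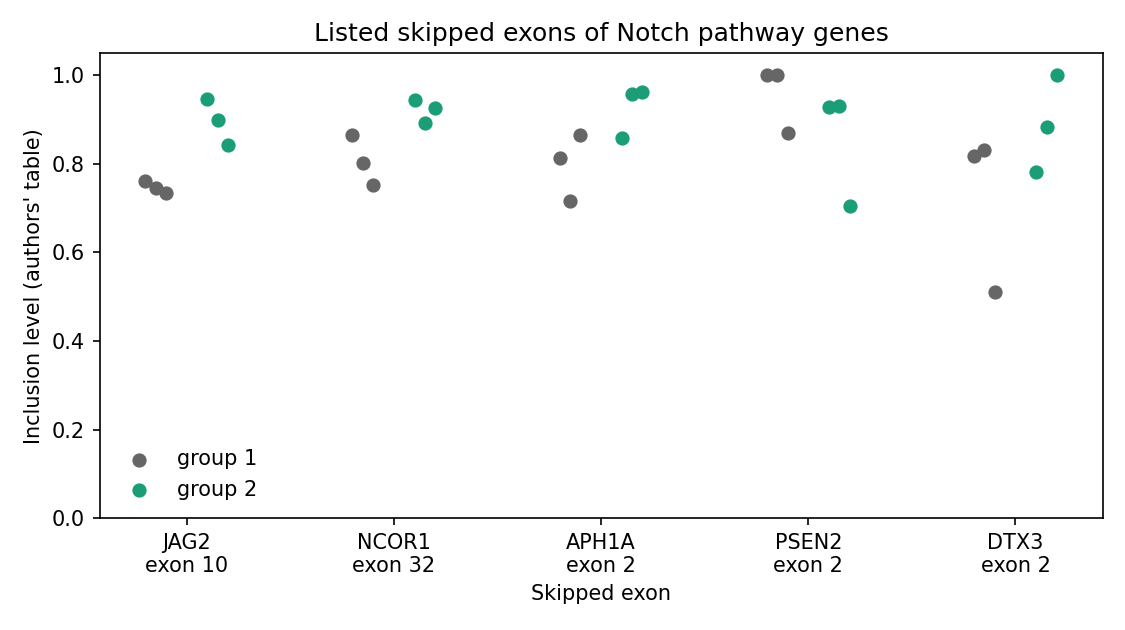
Deposited inclusion levels (0 to 1) of the 5 listed exons of Notch pathway genes, 3 points for each of group 1 and group 2 as the authors' table names them. For JAG2 exon 10 and NCOR1 exon 32 the 3 points of group 1 lie below those of group 2, and for the other 3 exons the groups overlap.

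HES1 and HES4 encode basic helix-loop-helix repressors that RBPJ and the Notch intracellular domain switch on through sites next to the start of transcription. The core of the RBPJ site, TGGGAA on either strand, was searched for in RefSeq promoters (GRCh38.p14) reaching from 250 bases before to 50 after each start. Of the 8 Notch genes with a promoter in that table, which were all but DLL1 and HEY1, HES1 and HES4 held the core, where 24.0% of all 35116 promoters held it. The longer GTGGGAA, which contains the core, was also found in HES1 and HES4 alone of the 8, and in 6.25% of all promoters. The 250 bases before the start of both are shown, because they hold these matches, with TGGGAA in capitals. They are read from chr3:194135898-194136147 (plus strand) for HES1 and chr1:1000098-1000347 (minus strand) for HES4.

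HES1: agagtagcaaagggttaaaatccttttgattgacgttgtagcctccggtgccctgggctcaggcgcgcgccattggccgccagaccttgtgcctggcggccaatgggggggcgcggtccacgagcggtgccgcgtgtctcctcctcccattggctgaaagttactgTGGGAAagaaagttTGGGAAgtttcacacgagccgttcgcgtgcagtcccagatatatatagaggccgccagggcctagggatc
HES4: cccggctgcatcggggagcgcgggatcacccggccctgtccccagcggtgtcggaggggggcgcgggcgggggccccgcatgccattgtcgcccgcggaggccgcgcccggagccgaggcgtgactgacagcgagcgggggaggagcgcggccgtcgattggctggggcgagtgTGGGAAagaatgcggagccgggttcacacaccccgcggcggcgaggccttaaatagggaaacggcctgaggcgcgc

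In HES1 the cores lie at -84 to -79 and -70 to -65 from the start, and in HES4 at -76 to -71. These are matches of letters and do not show that RBPJ is bound there. Of the matches in HES1, only the one at -84 to -79 extends to GTGGGAA, at -85 to -79. Other forms of the RBPJ site were not searched for.

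HES1 (chromosome 3, 194136145 to 194138732, plus strand) had 26.5, 25.96 and 25.3 CPM in shCtrl and 29.0, 26.2 and 28.4 CPM in shRBM39. Replicates 1 and 3 of shRBM39 were above every control and replicate 2 was among them. The log2 fold change of HES1 was 0.11 (SE 0.06), with an interval from -0.01 to 0.22 and an edgeR adjusted p of 0.124. HES1 was called as higher, at 0.15, without shRBM39 replicate 2, with an adjusted p of 0.0491. Its value was -0.018 under library totals alone, -0.019 on log2(RPKM + 1) and -0.021 on log2(RPKM + 0.1), so no direction held under every scaling. The ratio of HES1 to NOTCH1 within a library was 2.47 ± 0.102 in shCtrl and 2.497 ± 0.272 in shRBM39 on RPKM (SD, n = 3), and the groups overlapped.

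HES4 (chromosome 1, 998962 to 1000172, minus strand) had 5.41, 5.84 and 5.56 CPM in shCtrl and 5.61, 3.31 and 5.16 CPM in shRBM39. Replicate 2 of shRBM39, with 57 counts, was well below the other 5 libraries, which had 100 to 124. The groups overlapped in CPM and did not in RPKM. The log2 fold change of HES4 was -0.24 (SE 0.14), at an edgeR adjusted p of 0.138. Without that replicate it was -0.052, and without shRBM39 replicate 1 it was -0.38 and passed the threshold, at an adjusted p of 0.0333. Under library totals alone it was called at -0.36. The value of HES4 thus moved with single libraries. Its exons have a GC content of 73.8%, the highest of the tested Notch genes. With GC content and length corrected for, HES4 was at -0.22 (edgeR adjusted p 0.180) and still not called. The ratio of HES1 to HES4 within a library was 2.66, 2.41 and 2.47 in shCtrl and 2.80, 4.29 and 2.99 in shRBM39 on RPKM, without overlap and with an exact permutation p of 0.1.

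HEY1, a repressor of the related Hairy and YRPW-motif family, showed the largest change among the tested Notch genes. The gene (chromosome 8, 79764010 to 79767863, minus strand) had 28, 44 and 47 counts in shCtrl replicates 1, 2 and 3 and 19, 12 and 18 counts in shRBM39. On the CPM scale these were 1.39, 2.07 and 2.31 against 0.970, 0.697 and 0.929. All shRBM39 libraries lay below all controls, though shCtrl replicate 1 stood nearer to them than the other controls did. The log2 fold change of HEY1 was -1.14 (SE 0.25), at an edgeR adjusted p of 0.000211, or -54.6%. HEY1 remained called without each library in turn, between -1.32 and -0.99, and when tested against an absolute log2 fold change of 0.5. On log2(RPKM + 1), which compresses low values, it was -0.36.

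The difference between HES1 and HEY1 did not depend on scaling. Within a library HES1 exceeded HEY1 by 29.9, 19.6 and 17.2 times in shCtrl and by 46.9, 58.9 and 48.0 times in shRBM39 on RPKM, without overlap and with an exact permutation p of 0.1. HEY2, a paralog named after its values were seen, had 30, 36 and 36 counts in shCtrl and 47, 38 and 44 in shRBM39. Its log2 fold change was 0.47, at an edgeR adjusted p of 0.0334. The call was lost under DESeq2 (0.49), under library totals alone (0.35), and without shCtrl replicate 1 or 2 (0.41 and 0.49) or shRBM39 replicate 1 or 3 (0.44 and 0.48). The ratio of HEY1 to HEY2 on RPKM was 0.792, 1.04 and 1.11 in shCtrl and 0.343, 0.268 and 0.347 in shRBM39. The groups of this ratio did not overlap, with an exact permutation p of 0.1.

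ATOH1 (chromosome 4, 93828753 to 93830964, plus strand) had 0 counts in all 6 libraries. A count of 0 allows up to 3 counts, or between 0.0664 and 0.0752 RPKM depending on the library, a limit that covers counting error only. The genes of the lineages on either side of ATOH1 were mostly at low levels as well. An exception was the absorptive gene VIL1, with a mean of 693 CPM in shCtrl. Of 9 secretory lineage genes, 4 were tested, 2 of which rose (MUC2 and LYZ) and 1 of which fell (TFF3), or 75.0% called beside 59.1% of all genes, while NEUROG3 had 0 counts. TFF3, a goblet cell peptide, fell by 0.98 on the log2 scale, from 20.05 ± 1.95 to 10.2 ± 0.329 CPM (SD, n = 3, edgeR adjusted p 1.78e-12). The mucin gene MUC2 and the lysozyme gene LYZ stood at 1.516 and 1.205 CPM in shCtrl and at 2.39 and 2.45 CPM in shRBM39, with edgeR adjusted p of 0.0113 and 0.000101, and the MUC2 libraries of the groups overlapped. MUC2 lost its call under DESeq2, on both log2 RPKM scales, without shCtrl replicate 2 (0.42) and without shRBM39 replicate 1 (0.50). GFI1, a secretory factor, was at 3.02 ± 0.699 and 2.82 ± 0.183 CPM (SD, n = 3) and was not called.

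Of 8 genes listed for the absorptive lineage, the 4 tested were all called, 2 as higher and 2 as lower, where 59.1% of all genes were called. CDX2, on this list although it is an intestinal master factor rather than a marker of absorptive cells, had the largest of these differences. Its log2 fold change was -2.13, with an edgeR adjusted p of 2.44e-20. KRT20, a keratin of differentiated gut epithelium named after its values were seen, had the larger of the increases, 1.82 (edgeR adjusted p 8.41e-05), from 11, 5 and 3 counts in shCtrl to 18, 25 and 19 in shRBM39. FABP1, a fatty acid carrier, was higher by 0.43 (edgeR adjusted p 0.000912) and VIL1, which encodes villin, had a log2 fold change of -0.09 (edgeR adjusted p 0.0298). FABP1 was not called on the log2 RPKM scales (0.23 and 0.29), and VIL1 lost its call without shCtrl replicate 1 or 3 (-0.085 and -0.086), without shRBM39 replicate 1 or 3 (-0.088 and -0.069), without the filter on low counts (-0.081) and once GC content and length were corrected for (-0.043).

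The rest of the pathway was then described with a list of 61 genes grouped by role. Of these, 56 were tested and 42 were called, 12 as higher and 30 as lower in shRBM39, which is 75.0% called beside 59.1% of all genes. Their median log2 fold change was -0.19. Under library totals alone the split was 6 higher and 36 lower, and with GC content and length corrected for it was 16 and 28. For all genes, 49.4% of the calls were higher with TMM and 33.9% under library totals alone, a scaling that moved the median of all genes to -0.14.

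All 3 listed proteases that cut the receptors before gamma-secretase does were called as lower, where 29.9% of all genes were. FURIN, which makes the first cut during export, fell by 0.85 on the log2 scale, from 27.2 ± 0.733 to 15.04 ± 1.01 CPM (SD, n = 3, edgeR adjusted p 4.74e-13). ADAM17 and ADAM10, the ADAM proteases of the list, fell by 0.44 and 0.30 (edgeR adjusted p 1.57e-08 and 7.33e-07), and without overlap between the groups. Corrected for GC content and length, ADAM10 was still called, at -0.15.

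Gamma-secretase, which makes the final cut, had 3 of 6 subunit genes called in mixed directions, where 59.1% of all genes were called. PSEN2, a catalytic presenilin, was lower by -0.37 (edgeR adjusted p 0.000291), and the accessory subunits PSENEN and APH1A were higher by 0.31 and 0.21 (edgeR adjusted p 0.00194 and 0.00451). APH1A and PSENEN lost their calls under library totals alone, at 0.083 and 0.18, and APH1A on the log2 RPKM scales too.

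Sugar-transferring enzymes that tune the receptors also moved in both directions. The Fringe gene LFNG was higher by 0.34 and its paralog MFNG lower by -0.28, with edgeR adjusted p of 0.00110 and 0.000168, and each was called under all scalings tried. POFUT1, which adds the first fucose, was lower by -0.19 (edgeR adjusted p 0.000155), and POGLUT1, at 0.19, was called only when GC content and length were corrected for (0.24).

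In the nuclear complex, 5 of 7 genes were lower and 1 higher, or 85.7% called beside 59.1% of all genes. The 3 Mastermind coactivators were all lower. MAML3 had 6.27 ± 0.446 CPM in shCtrl and 2.07 ± 0.351 CPM in shRBM39 (SD, n = 3). It changed by -1.59 on the log2 scale, at an edgeR adjusted p of 2.67e-11. MAML2 went from 31.7 ± 1.78 to 15.2 ± 1.57 CPM (SD, n = 3), or by -1.07 on the log2 scale at an edgeR adjusted p of 3.63e-15. MAML1 changed less, by -0.33 (edgeR adjusted p 1e-06). RBPJ itself, named after its values were seen, was lower by -0.20 (edgeR adjusted p 0.00234) and lost the call when GC content and length were corrected for, at -0.11. The acetyltransferase gene CREBBP, at 0.06, was not called. Correcting for GC content and length brought it to 0.22 and past the threshold (edgeR adjusted p 9.63e-06), and with library totals alone its sign turned (-0.062).

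All 8 corepressor genes of RBPJ were called, 6 as lower and 2 as higher, where 59.1% of all genes were called. TLE1, a Groucho family corepressor, had the largest difference, -1.25 (edgeR adjusted p 1.98e-05), followed by L3MBTL3 at -0.92 (edgeR adjusted p 2.44e-16). TLE1 was low, at 2.25 ± 0.203 CPM in shCtrl (SD, n = 3). Its paralog TLE3, named after its values were seen, had 173.5 ± 2.93 CPM in shCtrl and 187 ± 5.54 CPM in shRBM39 (SD, n = 3), a call as higher at 0.11 (edgeR adjusted p 0.0119). TLE3 lost that call with upper-quartile scaling (0.077) and without shRBM39 replicate 2 (0.092), moved to 0.25 once GC content and length were corrected for, and changed sign with library totals alone (-0.013) and on each log2 RPKM scale (-0.012 and -0.013).

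Of 15 ubiquitin ligases and endocytic regulators, 14 were tested, of which 8 were lower and 3 higher, or 78.6% called beside 59.1% of all genes. The Deltex genes DTX4 and DTX1 had the largest decreases, -1.39 and -0.80 (edgeR adjusted p 5.99e-08 and 0.000931). NEURL1B, a Neuralized ligase that acts on ligands, rose by 0.70, from 4.99 ± 0.0205 to 8.13 ± 0.159 CPM (SD, n = 3, edgeR adjusted p 9.24e-07). NUMB, which routes receptors away from the membrane, was at 58.3 ± 0.780 and 59.0 ± 1.63 CPM (SD, n = 3) and was not called. It passed the threshold in opposite directions under other scalings, as lower with library totals alone (-0.107, edgeR adjusted p 0.0383) and as higher once GC content and length were corrected for (0.12, edgeR adjusted p 0.0131).

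Of the remaining receptors and ligands, 3 of 5 were tested and 1 was called, or 33.3% called beside 59.1% of all genes. The called gene, DLK2 at -0.63 (edgeR adjusted p 0.0155), lost the call under DESeq2 and without shRBM39 replicate 2 (-0.49). DLL4, a Delta ligand, had 20.7 ± 0.337 CPM in shRBM39 and 22.6 ± 1.34 CPM in shCtrl (SD, n = 3). Its log2 fold change of -0.13 had an edgeR adjusted p of 0.0812. It passed the threshold with upper-quartile scaling (-0.16), library totals alone (-0.26), on each log2 RPKM scale (-0.21 and -0.25) and without shCtrl replicate 1 (-0.17).

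Among other HES and HEY genes and targets, 4 of the 10 tested were lower and 3 higher, or 70.0% called beside 59.1% of all genes, and HES3 and HES5 had at most 1 count in a library. The lower genes with the largest differences were MYC, SOX9 and BHLHE40, at -0.96, -0.77 and -0.76 (edgeR adjusted p 1.46e-20, 6.85e-18 and 8.84e-14), genes with inputs besides Notch. HES6, a family member that counteracts HES1, rose by 0.35, from 232 ± 5.07 to 295 ± 10.7 CPM (SD, n = 3, edgeR adjusted p 9.94e-10), and the ratio of HES6 to HES1 on RPKM was 9.07 ± 0.388 in shCtrl and 10.7 ± 0.244 in shRBM39, without overlap. HEYL, at 5.55 ± 0.499 and 5.48 ± 0.816 CPM (SD, n = 3), was not called.

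**Figure D4:**
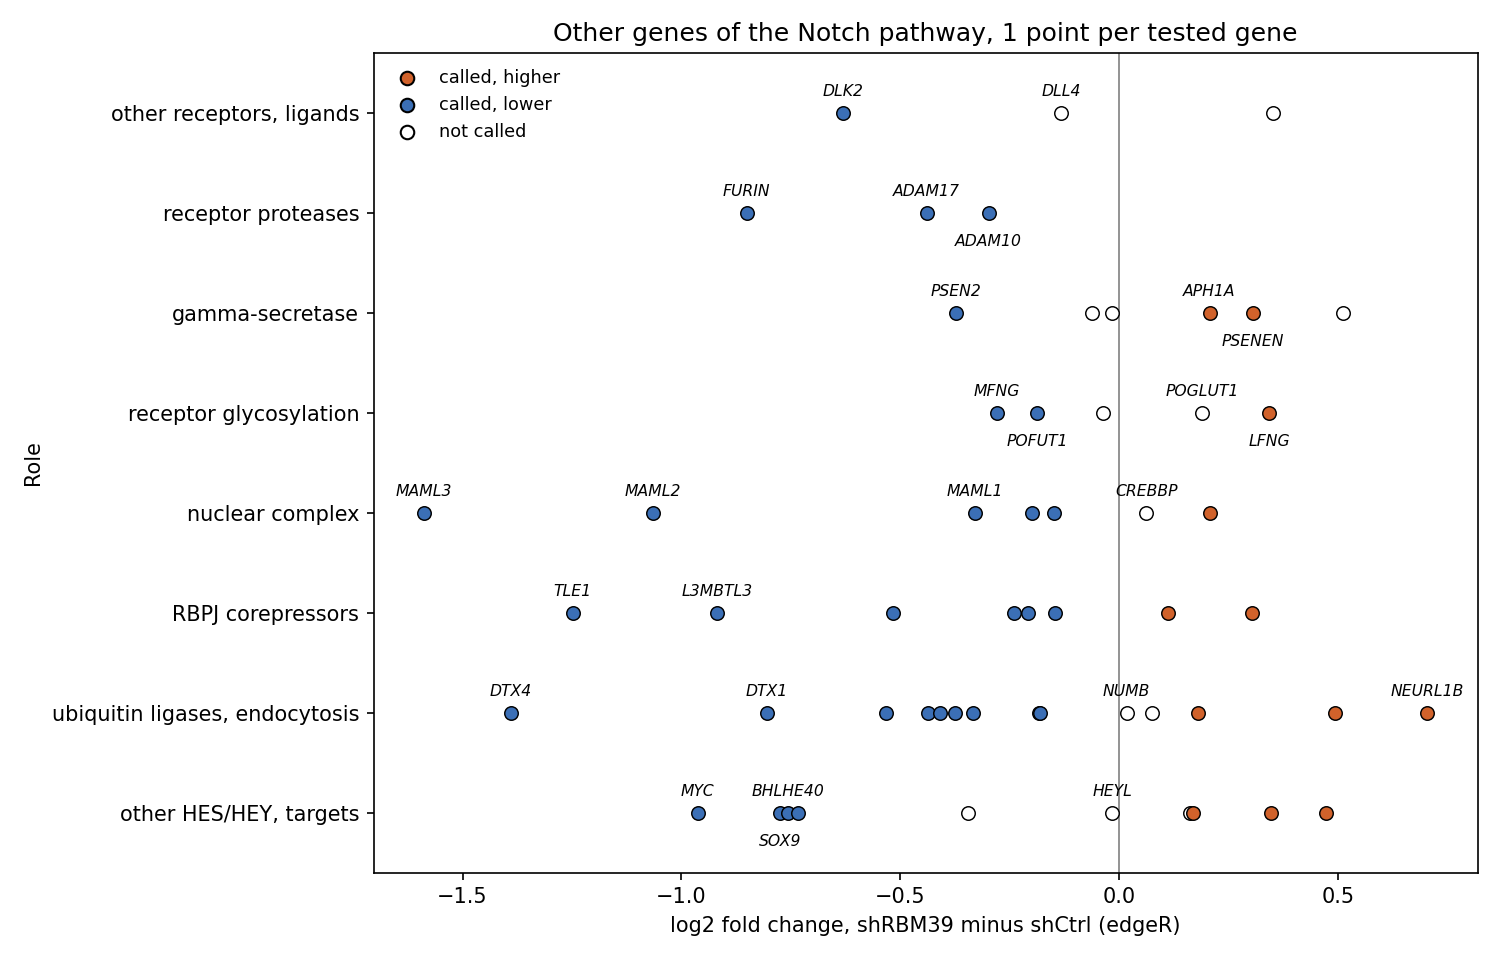
log2 fold change (shRBM39 minus shCtrl) of the 56 tested genes of the wider Notch pathway list, 1 row per role and 1 point per gene. Blue points were called as lower and orange points as higher by edgeR at an adjusted p under 0.05, and open points were not called. The 3 genes of the receptor protease row and the 3 MAML genes lie below 0. MAML3 at -1.59 is the lowest of all.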

How the data were processed

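The study prepared strand-specific mRNA libraries with a kit that adds a unique identifier to each molecule. Raw counts per gene and RPKM values were deposited by the authors, along with rMATS splicing records, whose inclusion and skipping read counts and inclusion levels (a fraction from 0 to 1) are the authors' deposited values. The submitters' processing notes name Trimmomatic 0.36, STAR 2.5.3a, featureCounts of Subread 1.5.1, edgeR 3.12.1 and GRCh38. The strand setting, the handling of reads with several positions and any collapsing of identifiers are not given in the sources used here. RPKM recomputed from the counts differed by at most 1.21e-13 relative to the deposited value. The p-values, FDR and group differences of the splicing records and a tally of events hold the authors' own comparisons and were not used. Samples were grouped by their titles, and the NC columns were taken to be shCtrl because there is no other control.

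The main test was edgeR 4.0.16 under R 4.3.3, with genes kept by filterByExpr, TMM scaling, a quasi-likelihood model of group alone, and Benjamini-Hochberg adjustment over 18243 genes at 0.05. Standard errors came from the log2 fold change and its F statistic. Alternatives were DESeq2 1.42.0, other scalings, filters and thresholds, limma 3.58.1 on log2 RPKM, a replicate block, each replicate left out, and a correction for GC content and length made with the reference genome. Exact permutation tests were two-sided (SciPy 1.17.1). The edgeR script was tested on simulated data. Replicates of a group differed by more than sampling noise (chi-square divided by its degrees of freedom, at least 2.11). The members and lists were chosen with earlier results of these data known. Besides the members, the text names in each pathway list the 3 called genes with the largest absolute log2 fold changes and the gene with the highest level that was not called, and lineage genes with at least 1 CPM on average. Some genes that this rule names are not reported here.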

Additional observations from a re-analysis of the deposited data

How the results depend on the processing

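JAG1, JAG2 and HEY1 stayed lower in shRBM39 in every alternative run and stayed called, except that JAG1 (-0.21) and JAG2 (-0.18) were not called against an absolute log2 fold change of 0.5, where 1 Notch gene, 9 wider pathway genes and 2232 genes in all were called. With library totals alone 5 of the 8 tested Notch genes were called, all as lower, NOTCH2 (-0.23) and HES4 (-0.36) being added. That scaling called 61.1% of all genes, with 33.9% of the calls higher and a median log2 fold change of -0.14. Under it NOTCH1 (-0.032), HES1 (-0.018), CREBBP (-0.062), TLE3 (-0.013) and NUMB (-0.107, then called as lower) changed sign. On log2(RPKM + 1) and log2(RPKM + 0.1), NOTCH2 was called at -0.14 and -0.22, and the sign turned for NOTCH1 (-0.027 and -0.031), HES1 (-0.019 and -0.021), CREBBP (-0.055 and -0.061), TLE3 (-0.012 and -0.013) and NUMB (-0.090 and -0.105). Upper-quartile scaling called NOTCH2 (-0.14) and turned NUMB (-0.016). Correcting for GC content and length called NOTCH1 (0.22), CREBBP (0.22), NUMB (0.12) and POGLUT1 (0.24) as higher and turned NOTCH2 (0.040). The cause of these moves was not tested. With 1 replicate left out, NOTCH1 ran from 0.062 to 0.16, HES1 from 0.081 to 0.15, HES4 from -0.38 to -0.052 and HEYL from -0.127 to 0.098. The replicate numbers did not pair the samples (correlations of same-numbered deviations from -0.050 to 0.037), and the replicate block called 10810 genes against 10790, with 3 Notch genes and 42 wider pathway genes as without it. NOTCH3 and KRT20 could not be fitted under the filter of at least 10 counts in every library, and the low counts of NOTCH3 and DLL1 limit what could be detected.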
